A study of Mus musculus with 6 samples.

Results

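The genes described here are the 6 mitochondrially encoded subunits of respiratory complexes III, IV and V. They were taken by name, as every row whose symbol starts with mt-Cytb, mt-Co or mt-Atp, which gave mt-Cytb, mt-Co1, mt-Co2, mt-Co3, mt-Atp6 and mt-Atp8, 6 of 11955 rows. Total RNA came from mouse samples that the labels call chondrocytes (cartilage cells), read as 6 libraries. The genotype was control in 3 and Eldr cKI in the other 3, where Eldr is a long noncoding RNA and the labels do not spell out cKI. Age, sex, strain, promoter and whether samples came from separate mice are not given in the sources used here, so p-values may measure only technical spread. The values are FPKM, fragments per kilobase of gene scaled to the mapped fragments of its library. They are per length, but comparisons between genes are limited by the shared and copied stretches described below.

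The inner mitochondrial membrane carries the respiratory chain. Complex III passes electrons from ubiquinol to cytochrome c, complex IV (cytochrome c oxidase) passes them on to oxygen, and complex V (ATP synthase) uses the proton gradient built by the chain to make ATP. Each of these complexes joins a few subunits encoded on mitochondrial DNA to many encoded in the nucleus, and the mitochondrial messages are cut from long transcripts that cover several genes. Complex II has no mitochondrially encoded subunit, and the mitochondrially encoded subunits of complex I are described here only for comparison.

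All 6 genes lie on the plus strand of chromosome M (GRCm38), and 3 of them touch. mt-Atp8 (ENSMUSG00000064356.3, chrM:7766-7969, 204 bases) overlaps mt-Atp6 (ENSMUSG00000064357.1, chrM:7927-8607, 681 bases) by 43 bases, which is 21.1% of mt-Atp8 and 6.31% of mt-Atp6. The last base of mt-Atp6 is the first of mt-Co3 (ENSMUSG00000064358.1, chrM:8607-9390, 784 bases). These sequences are shown because fragments from the shared stretch match both genes. Sequences are those of the GENCODE M21 transcripts, 5′ to 3′, and capitals mark the bases that the neighbouring genes share.
mt-Atp8, whole gene: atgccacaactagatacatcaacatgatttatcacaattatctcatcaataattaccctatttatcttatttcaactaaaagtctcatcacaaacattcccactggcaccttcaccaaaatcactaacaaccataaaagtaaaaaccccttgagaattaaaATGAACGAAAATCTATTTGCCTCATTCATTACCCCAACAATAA
mt-Atp6, first 60 bases: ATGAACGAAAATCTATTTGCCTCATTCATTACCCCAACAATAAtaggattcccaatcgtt
mt-Atp6, last 30 bases: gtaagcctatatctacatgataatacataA
mt-Co3, first 30 bases: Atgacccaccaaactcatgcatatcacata

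The shared base between mt-Atp6 and mt-Co3 is the last letter of the mt-Atp6 stop codon and the first letter of the mt-Co3 start codon. The other genes stand apart: mt-Co1 (ENSMUSG00000064351.1, chrM:5328-6872, 1545 bases), mt-Co2 (ENSMUSG00000064354.1, chrM:7013-7696, 684 bases) and mt-Cytb (ENSMUSG00000064370.1, chrM:14145-15288, 1144 bases). The genes mt-Co3 and mt-Cytb each end with 1 base left over after whole codons. That base, in capitals in the 2 ends shown next, is the start of a stop codon that the poly(A) tail completes, a known feature of mammalian mitochondrial messages.
mt-Co3, last 30 bases: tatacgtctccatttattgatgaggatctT
mt-Cytb, last 30 bases: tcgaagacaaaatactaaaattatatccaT

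Near-identical copies of 4 members are annotated as pseudogenes next to each other on the minus strand of chromosome 1. Gm10925 (chr1:24613974-24614651) matches mt-Atp6 at 100% over 678 bases. Gm28661 (chr1:24614885-24615565) matches mt-Co2 at 100% over 681 bases, and Gm28437 (chr1:24613189-24613971) matches mt-Co3 at 100% over 783 bases. Gm29216 (chr1:24615706-24616197) matches the last 483 bases of mt-Co1 at 99.8%. The closest copy of mt-Cytb, Gm11410 on chromosome 4, matches at 92.9% over 1142 bases. The pseudogenes are not analysed here, since every row used is typed as protein-coding. No source used here says how reads with several alignments were counted, so the FPKM of mt-Atp6, mt-Co1, mt-Co2 and mt-Co3 is uncertain to that extent. The same holds for the last 43 bases of mt-Atp8, 21.1% of that gene. They match Gm10925 at 100%, a stretch too short to be called a near-identical copy here.

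The libraries are shallow and uneven, and the cell type in the labels was not borne out by its markers. Depth was estimated by taking the most common value of FPKM times length, over genes with 1 transcript, as the worth of 1 fragment. It was about 64167 to 239144 fragments per library. This is rough, since only 36 to 88 genes per library lay at that most common value, and that it stands for 1 fragment was not tested. Summed over the 7 cartilage markers that have a row, FPKM was 5.01 to 12.7 in control and 1.25 to 10.4 in Eldr cKI, and none of the 7 was above 0 in every library (Col2a1 and Sox9 were each listed at 0 in at least 3). The 12 cardiomyocyte markers summed to 1207 to 2527 FPKM in control and 1658 to 5531 in Eldr cKI. The 14 hepatocyte markers summed to 12393 in control replicate 3 and 80.4 to 540 elsewhere, and the 9 photoreceptor markers to 1112 and 1736 in control replicates 1 and 2 and 0 to 9.90 elsewhere. In Eldr cKI replicate 1, 64.6% of all FPKM lay in 4 predicted genes (Gm10722, Gm10800, Gm10801 and Gm21738), against 4.40% to 16.9% in the other libraries. The part of these differences in the results below was not tested. Eldr itself is not analysed here.

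The 6 genes were among the most abundant messages of each library, with 1 exception. Together they held 7.98%, 15.7% and 15.1% of all FPKM over control replicates 1 to 3, while Eldr cKI replicates 1 to 3 gave 2.13%, 17.3% and 14.9%. The low values are those of the libraries numbered 1, and the groups overlap (SD 4.32 and 8.17 percentage points, n = 3 each, two-sided exact permutation p = 0.8). With the 4 predicted genes left out of the total, the shares were 9.60%, 16.8% and 15.8% in control and 6.02%, 19.1% and 16.1% in Eldr cKI. Eldr cKI replicate 1 was the lowest library for 5 of 6 members, and control replicate 3 the highest for 5 of 6. Without Eldr cKI replicate 1 the difference in share changed direction, from -1.49 to 3.17 percentage points. In bulk RNA such as this, fewer cells of a type and less RNA per cell cannot be told apart.

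**Figure D1:**
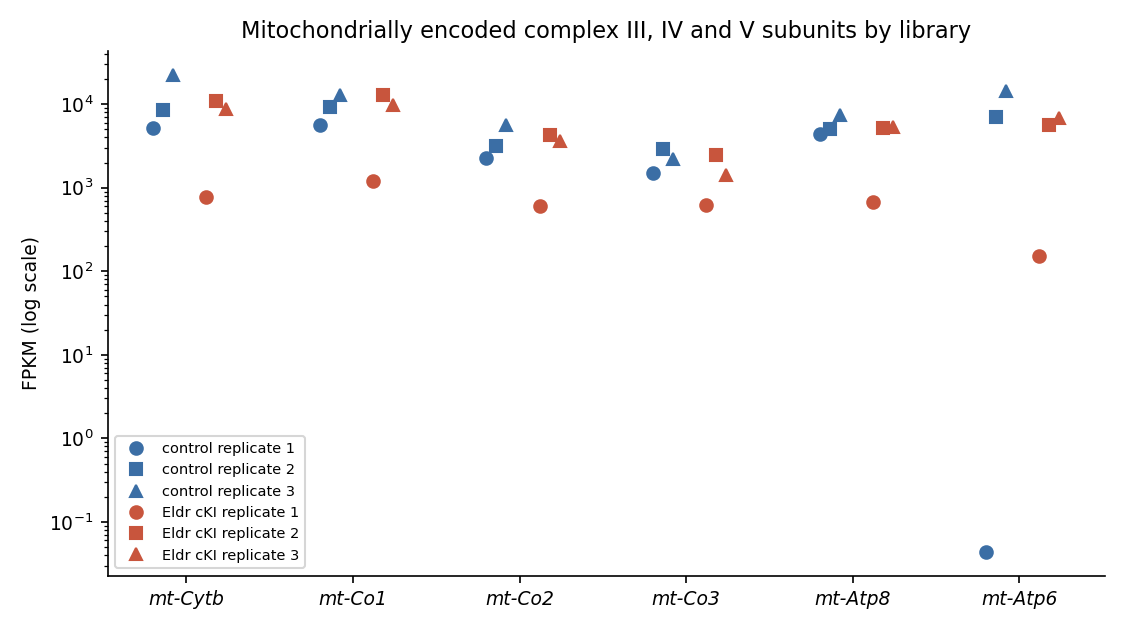
FPKM on a log axis for the 6 genes, with 1 point per library (blue, control; red, Eldr cKI; shapes, replicate numbers). The groups overlap for every gene, Eldr cKI replicate 1 is lowest for 5 of 6, and mt-Atp6 in control replicate 1, at 0.0439 FPKM, lies far below every other point.

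In complex III, mt-Cytb encodes cytochrome b, the heme-bearing subunit in which ubiquinol is oxidised. It was at 5243, 8423 and 22579 FPKM in control and at 774, 10798 and 8870 in Eldr cKI. Control replicate 3 was well above the rest and Eldr cKI replicate 1 well below, and the other 4 libraries lay within 5243 to 10798 FPKM. Means were 12082 ± 9229 and 6814 ± 5319 FPKM (SD, n = 3, two-sided exact permutation p = 0.6). The log2 fold change of Eldr cKI against control, on the log2(FPKM + 1) scale, was -1.25 (SE 0.37), the largest fall of the 6, and did not pass (limma, Benjamini-Hochberg adjusted p = 0.451). Without Eldr cKI replicate 2 it was -1.93 and passed (adjusted p = 0.00407), and without Eldr cKI replicate 1 it was -0.03. The authors' deposited table gives it p = 0.414 and q = 0.747.

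In complex IV, mt-Co1 encodes the catalytic subunit that holds heme a and the heme a3 and copper centre where oxygen is reduced. It was at 5575, 9310 and 12937 FPKM in control and at 1201, 12921 and 9757 in Eldr cKI. Eldr cKI replicate 2 was close to the highest control, whereas replicate 1 was below every control. Means were 9274 ± 3681 and 7960 ± 6063 FPKM (SD, n = 3, exact permutation p = 0.8), and the log2 fold change was -0.72 (SE 0.36, limma, adjusted p = 0.959). Without Eldr cKI replicate 1 it was 0.36.

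mt-Co2 encodes the subunit with the copper site that takes electrons from cytochrome c. It was at 2238, 3171 and 5598 FPKM in control and at 611, 4298 and 3623 in Eldr cKI. The groups overlap, with Eldr cKI replicates 2 and 3 between control replicates 2 and 3. The log2 fold change was -0.69 (SE 0.48, limma, adjusted p = 0.959), and 0.21 without Eldr cKI replicate 1.

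mt-Co3 encodes the third core subunit of the oxidase, which carries no metal centre. It was at 1517, 2876 and 2178 FPKM in control and at 615, 2451 and 1418 in Eldr cKI. Here 2 Eldr cKI libraries were below every control, and Eldr cKI replicate 2 was between the higher controls. Its spread was the narrowest of the 6 genes, with 4.68-fold between the highest and lowest library against 29.2-fold for mt-Cytb. The log2 fold change was -0.72 (SE 0.55, limma, adjusted p = 0.959), and -0.18 without Eldr cKI replicate 1.

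In complex V, mt-Atp8 encodes a small subunit of the membrane part of ATP synthase. It was at 4353, 5036 and 7339 FPKM in control and at 679, 5218 and 5299 in Eldr cKI. Apart from Eldr cKI replicate 1, which was lower, the libraries stayed within 4353 to 7339 FPKM. The log2 fold change was -1.03 (SE 0.43, limma, adjusted p = 0.959), and -0.05 without Eldr cKI replicate 1.

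mt-Atp6 encodes subunit a, which forms the proton path of the same membrane part. It was at 0.0439, 6950 and 14442 FPKM in control and at 150, 5698 and 6785 in Eldr cKI. The libraries numbered 1 of both groups were far below the other 4 libraries. At the rough depth estimated for control replicate 1, its value equals 0.00501 fragments, less than 1, and it ranked 8945 in that library, whereas in the other libraries it ranked 5 to 53. In Eldr cKI replicate 1 the value equals about 10.6 fragments. On the log scale the gene was higher in Eldr cKI (log2 fold change 1.93, SE 0.65, limma, adjusted p = 0.724), although its mean FPKM was lower, at 4211 ± 3558 against 7131 ± 7223 (SD, n = 3). That SE rests on a moderated SD of 0.79, while the gene's own SD on the log scale was 5.84. Without control replicate 1 the log2 fold change was -2.47 and passed (adjusted p = 0.0383), in a fit with 2 controls against 3. With all 6 libraries it passed in the opposite direction under 3 settings: a pseudocount of 0.1 (2.88, adjusted p = 0.000351), rescaling to a common total (2.93, adjusted p = 0.00970) and leaving out the predicted genes (3.44, adjusted p = 9.02e-08).

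The mt-Atp8 and mt-Atp6 messages are parts of the same mature transcript, and their FPKM can be set side by side within a library. mt-Atp6 was at 0.00101%, 138% and 197% of mt-Atp8 in control and at 22.1%, 109% and 128% in Eldr cKI. In the 4 libraries outside the replicates numbered 1 the ratio thus lay between 109% and 197%. The groups overlap (difference in log2(FPKM + 1) ratio 2.97, two-sided exact permutation p = 1 with 3 libraries per group), and without control replicate 1 the difference was -1.28. The first 43 bases of mt-Atp6 are those shown in capitals above, and no source used here says how the authors divided their fragments.

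**Figure D2:**
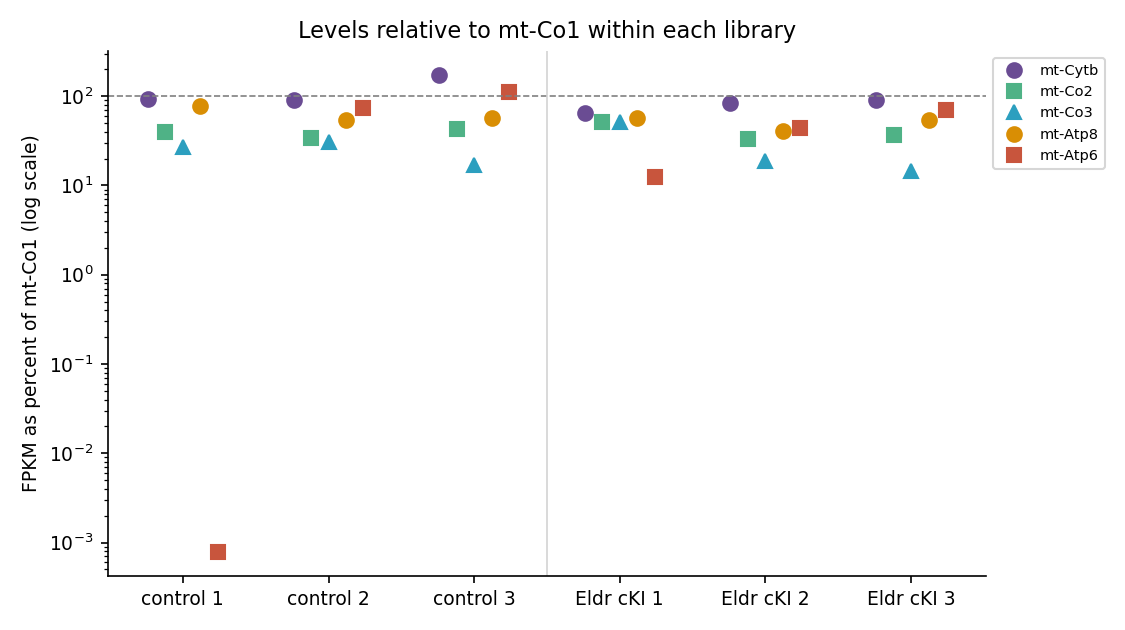
FPKM of 5 genes as a percent of mt-Co1 in the same library, on a log axis, with the dashed line at 100%. mt-Atp6 falls to 0.000787% in control replicate 1 and 12.5% in Eldr cKI replicate 1, whereas mt-Co2 stays between 33.3% and 50.9% in all 6 libraries.

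The comparison of genotypes asked whether any of these genes differs in Eldr cKI. None of the 6 passed an adjusted p of 0.05, in a fit in which 3 of 10772 genes (0.0278%) passed. At an unadjusted p under 0.05, 3 members were lower, mt-Cytb, mt-Co1 and mt-Atp8, where 1.66% of all genes were lower, and mt-Atp6 was higher, where 0.678% of all genes were. These p-values and the SEs of the fold changes use a spread taken from the trend across genes, and the members' own SD on the log scale was 1.16 to 7.39 times that spread. Without that trend 0 of 6 members had an unadjusted p under 0.05, and with robust moderation of it 1 did. None of the 6 had groups that did not overlap, against 3.78% of all genes. The authors' deposited table gives 0 of 6 a p under 0.05, against 1.98% of all rows, with p from 0.324 to 0.706 and q from 0.704 to 0.915. The median log2 fold change of the members was -0.72, and that of all genes -0.04. With the 4 predicted genes left out and libraries rescaled, these medians were 0.09 and 0.22, and 2 of 6 members rather than 5 of 6 were below 0.

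**Figure D3:**
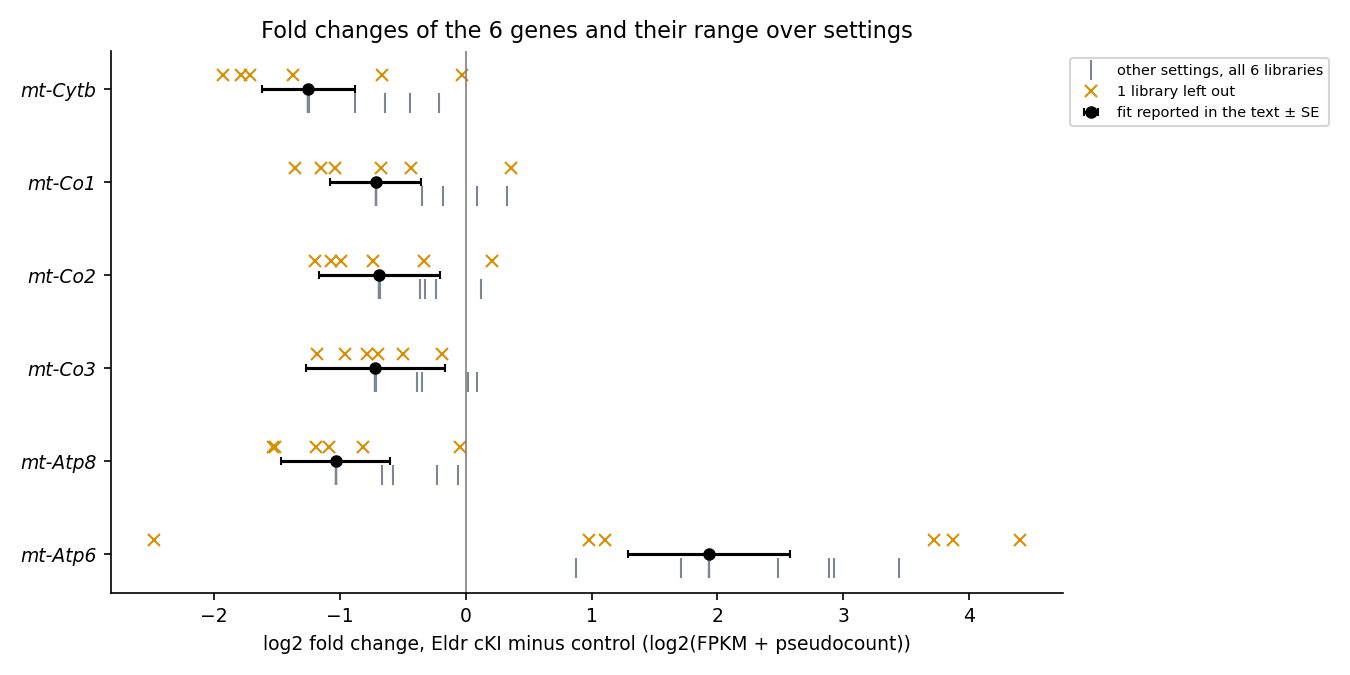
Log2 fold change of Eldr cKI against control for each gene: black points with SE bars for the fit in the text, ticks for other settings with all 6 libraries, crosses for fits with 1 library left out. The SE bars use the spread of the trend across genes, not each gene's own. The ranges of mt-Co1, mt-Co2, mt-Co3 and mt-Atp6 reach both sides of 0, and mt-Atp6 spans -2.47 to 4.40.

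By median FPKM over the 6 libraries the order was mt-Co1 (9534), mt-Cytb (8647), mt-Atp6 (6241), mt-Atp8 (5127), mt-Co2 (3397) and mt-Co3 (1848). None of the 5 neighbour pairs in this order passed after adjustment. mt-Co1 exceeded mt-Cytb in 5 of 6 libraries, with a mean log2 difference of 0.08 ± 0.47 (SD, n = 6, exact sign-flip permutation p = 0.656, adjusted over 5 neighbour pairs 0.656). mt-Atp8 exceeded mt-Co2 in 6 of 6 libraries by 0.50 ± 0.29 on the log2 scale, at the smallest p that 6 libraries allow (exact sign-flip p = 0.0313, adjusted 0.0781). mt-Atp8 is only 204 bases long and shares 43 of them with mt-Atp6, so this order is less certain. mt-Co2 exceeded mt-Co3 in 5 of 6 libraries, by 0.70 ± 0.58 (exact sign-flip p = 0.0625, adjusted 0.104). The mt-Cytb level exceeded that of mt-Atp6 in 6 of 6 libraries, by 2.81 ± 4.71 on the log2 scale (exact sign-flip p = 0.0313, adjusted 0.0781). mt-Atp6 exceeded mt-Atp8 in 4 of 6 libraries. Their mean log2 difference, which the test uses, ran the other way, at -2.04 ± 5.01 (exact sign-flip p = 0.5, adjusted 0.625). By mean log2(FPKM + 1), mt-Atp6 was the lowest of the 6 genes, at 9.85 against 10.7 for mt-Co3.

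Some of the correlations between members, mainly those of mt-Co3 and of mt-Atp6, depended on Eldr cKI replicate 1. It was the lowest library for all 5 members other than mt-Atp6. All genes of a library share its depth and the total to which its FPKM is scaled. Over the 6 libraries, Pearson's r of log2(FPKM + 1) was 0.87 to 0.99 for the 10 pairs among these 5 members. For the 5 pairs with mt-Atp6 it was 0.37 to 0.53. Over the 5 libraries without Eldr cKI replicate 1, a version added after the values were seen, it was 0.26 to 0.98 for the 10 pairs and 0.51 to 0.91 for the pairs with mt-Atp6. The median of the 10 pairs was then 0.80. The lowest values were those of mt-Co3, at 0.26 to 0.52, such as 0.37 with mt-Cytb, against 0.87 with all 6 libraries. The pairs among mt-Co1, mt-Co2, mt-Cytb and mt-Atp8 stayed at 0.76 to 0.98.

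Genes close to each member in pattern were sought outside the 6 members. Among 1163 such genes above 0 in every library with a mean of at least 5 FPKM, the complex I gene mt-Nd1 was the closest in pattern to mt-Co1 (r = 0.99) and was among the 3 closest to mt-Co2 and mt-Atp8. The complex I gene mt-Nd4l was among the 3 closest to mt-Co2 and mt-Cytb. The nuclear gene Ube2k, which encodes a ubiquitin-conjugating enzyme, was among the 3 closest to mt-Co1, mt-Co2 and mt-Cytb. Zranb2, which encodes a splicing-related zinc finger protein, was so for mt-Co1 and mt-Atp8. Closest to mt-Cytb was Dnaja1, a co-chaperone of Hsp70 (r = 0.99), and closest to mt-Atp8 was Qk, an RNA-binding protein (r = 0.99). For mt-Co3 they were Fnip1, Cox5b and Ogt (r = 0.96 to 0.98), of which Cox5b is a nuclear subunit of the same complex. For mt-Atp6 they were Cyth1, Gmds and Rps25 (r = 0.91 to 0.92). Apart from the 3 named for mt-Atp6, which were lowest in control replicate 1, these genes were lowest in Eldr cKI replicate 1: Qk was at 33.9 to 56.2 FPKM in the other libraries and at 1.73 there. Cox5b was at 27.3 FPKM there against 40.8 to 62.8 elsewhere. Without Eldr cKI replicate 1, r of the 18 pairs of a member and a gene so chosen was 0.86 to 0.99 over 5 libraries. The genes had been chosen by r over 6 libraries that include these 5, which favours a high r, so this range is not used as support. Whether the same genes would be closest without Eldr cKI replicate 1 was not examined.

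Within the FPKM of the 13 mitochondrially encoded genes, the 6 members held 27.4%, 30.9% and 22.1% in control and 25.1%, 39.5% and 48.0% in Eldr cKI. Eldr cKI replicates 2 and 3 were above every control and replicate 1 was between controls (difference 10.7 percentage points, two-sided exact permutation p = 0.3 with 3 libraries per group). The rest is complex I, of which mt-Nd6, the gene encoded on the opposite strand, alone took 12.7% to 52.8%. With mt-Nd6 left out, the members held 46.0%, 49.1% and 46.9% in control and 51.0%, 54.2% and 55.0% in Eldr cKI. All 3 Eldr cKI libraries were then above all 3 controls, by 6.04 percentage points on average (47.3 ± 1.59 against 53.4 ± 2.13, SD). The exact two-sided permutation p was 0.1, the smallest that 3 against 3 allows. In a version chosen after the values were seen, mt-Atp6 and mt-Nd4, which were very low in some libraries, were left out as well. The shares were then 49.2%, 43.8% and 45.8% in control and 50.1%, 50.6% and 53.5% in Eldr cKI (difference 5.16, exact permutation p = 0.1). In that version control replicate 1 came close to the lowest Eldr cKI library.

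**Figure D4:**
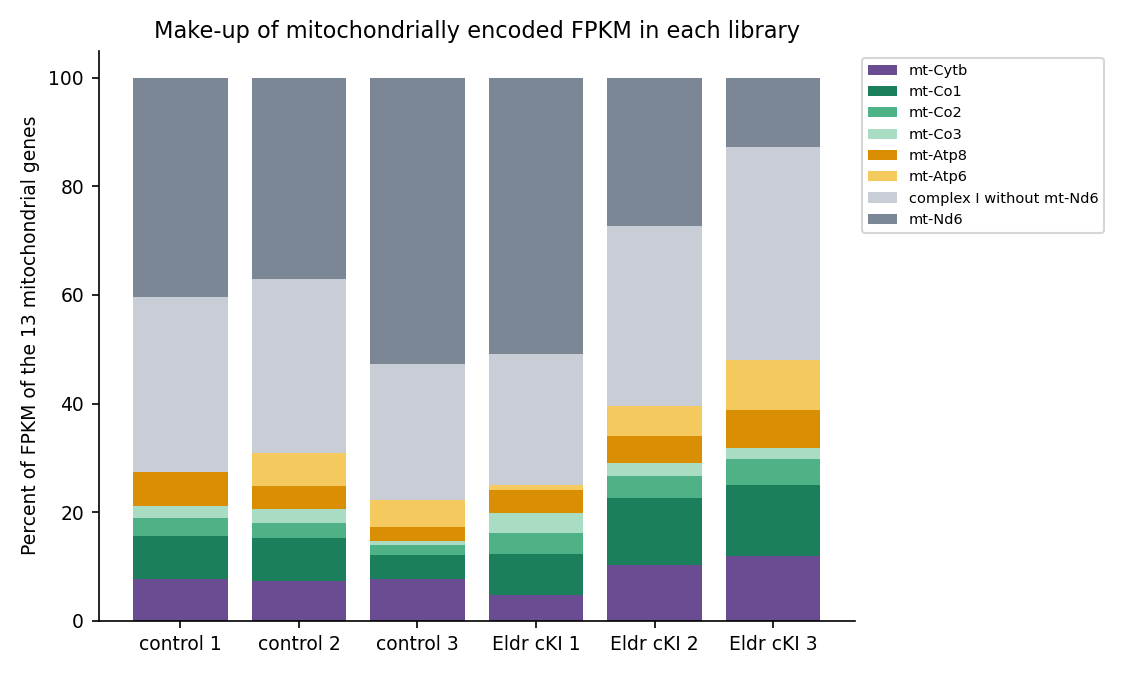
Stacked bars of the percent of FPKM that each of the 6 genes, the complex I genes without mt-Nd6, and mt-Nd6 took of the 13 mitochondrially encoded genes, per library. mt-Nd6 ranges from 12.7% in Eldr cKI replicate 3 to 52.8% in control replicate 3, and the 6 genes together from 22.1% to 48.0%.

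Of the 13 mitochondrially encoded genes, 2 had shares of mitochondrial FPKM that did not overlap between groups, both higher in Eldr cKI: mt-Co2 and the complex I gene mt-Nd2. With 3 libraries per group, a gene that does not differ has groups fully apart with probability 0.1, so the 2 of 13 are not read as a result. In FPKM, a measure unlike these shares, 3.78% of all genes had groups that did not overlap. mt-Co2 took 3.24%, 2.74% and 1.91% in control and 3.80%, 4.10% and 4.86% in Eldr cKI (exact permutation p = 0.1, adjusted over 6 members 0.6). mt-Nd2 took 3.67%, 3.36% and 3.74% in control and 8.74%, 4.42% and 5.78% in Eldr cKI. The FPKM of mt-Co2, as given above, did overlap. The 7 complex I genes all had log2 fold changes below 0, with a median of -1.23. Of these, 2 of 7 passed, mt-Nd6 (-2.13, SE 0.24) and mt-Nd5 (-1.68, SE 0.35) (limma, adjusted p = 4.64e-15 and 0.00434), against 0.0278% of all genes. These SEs use the spread of the trend across genes, and without it they were 1.18 and 1.20. The groups of both overlap in FPKM. mt-Nd6 was at 27852 to 155102 in control and 8164 to 28555 in Eldr cKI. mt-Nd5 was at 7851 to 23330 in control and 1146 to 13342 in Eldr cKI. In 17 alternative settings mt-Nd6 passed in 12 and mt-Nd5 in 7. Neither gene passed when control replicate 3 (limma, adjusted p = 0.958 for each), Eldr cKI replicate 1 (0.863) or the mean trend (0.991) was left out. Both also failed at a mean of at least 5 FPKM (0.999) and under quantile normalization (0.793 for mt-Nd6, 0.711 for mt-Nd5). Only mt-Nd5 failed when control replicate 2 (limma, adjusted p = 0.9999) or the predicted genes (0.0903) were left out. The same held for a pseudocount of 10 FPKM (0.0537), robust moderation (0.975) and library weights (0.206). Whether the members' fold changes differ from those of complex I was examined only through the shares above.

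Summed over genes, the nuclear partners of the members varied 1.79-fold between libraries, against 16.1-fold for the summed members. Single partner genes varied more than their sum: 8 of 43 were listed at 0 in at least 1 library, and the other 35 ranged 1.58-fold to 45.6-fold (median 4.02-fold). The genes counted here as nuclear-encoded subunits include Atpif1, the inhibitory factor of ATP synthase, in complex V. Of the genes so counted, 9 of complex III, 16 of complex IV and 18 of complex V had a row, and all 43 entered the fit. Together they summed to 3312, 3666 and 3382 FPKM in control and 2274, 4060 and 3601 in Eldr cKI (two-sided exact permutation p = 0.9 with 3 libraries per group). Eldr cKI replicate 1 was the lowest here as well, and the groups overlap. The members exceeded this sum 5.71-fold, 9.76-fold and 19.2-fold in control and 1.77-fold, 10.2-fold and 9.93-fold in Eldr cKI, a ratio that was added after the values were seen (exact permutation p = 0.6).

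Split by complex, mt-Cytb was above the summed complex III partners in every library, with 774 against 467 FPKM in Eldr cKI replicate 1. The 3 mt-Co genes were above the complex IV partners in every library, with 2427 against 822 FPKM in the same library. The mt-Atp genes together were above the complex V partners in 5 of 6 libraries, the exception being Eldr cKI replicate 1 with 830 against 984 FPKM.

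**Figure D5:**
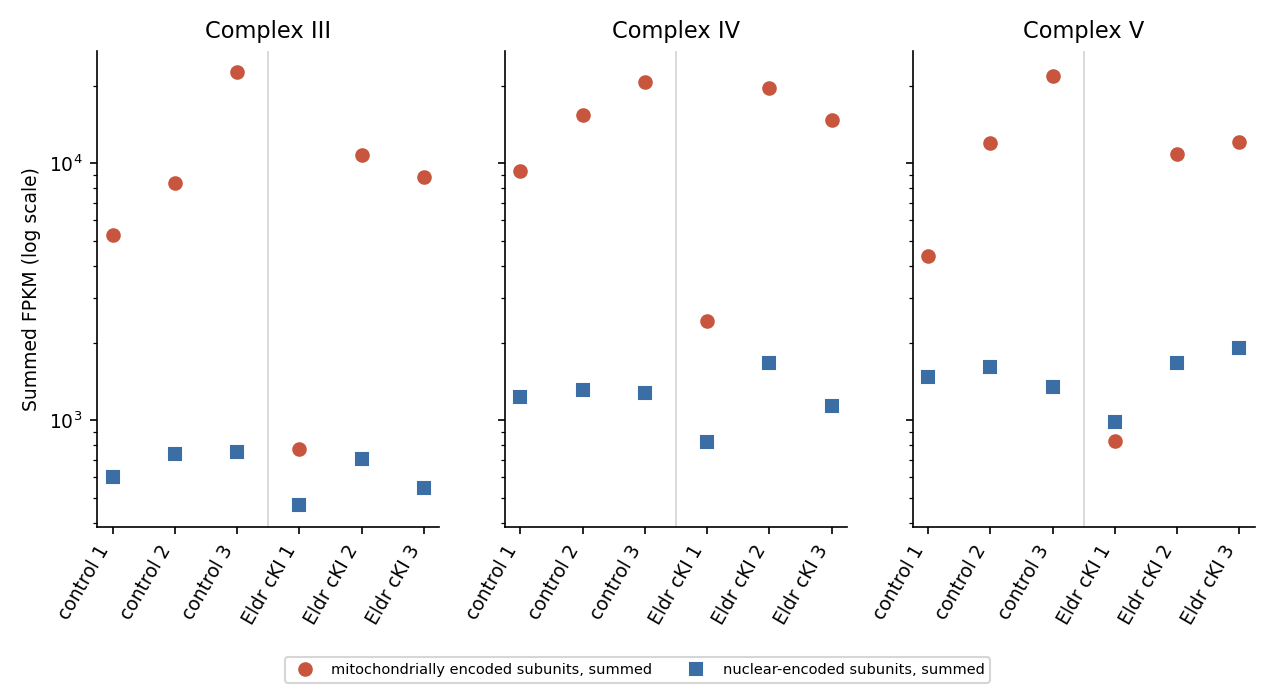
Summed FPKM on a log axis of the mitochondrially encoded (red circles) and nuclear-encoded (blue squares) subunits of complexes III, IV and V in each library. The nuclear sums of complex IV stay between 822 and 1674 FPKM, whereas the mitochondrial sums run from 2427 to 20714.

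None of the 43 nuclear subunit genes passed (limma, 1 at an unadjusted p under 0.05, smallest adjusted p 0.774). Of the 9 complex III genes 7 had log2 fold changes below 0 (median -0.75), where 5508 of all 10772 genes did. The most abundant were Uqcrb, at 187, 321 and 329 FPKM in control and 45.8, 216 and 245 in Eldr cKI, and Uqcr11, at 124, 116 and 128 in control and 45.8, 188 and 29.7 in Eldr cKI. Both encode small subunits. For Uqcrb, Eldr cKI replicate 1 was below every control and the other Eldr cKI libraries were among them, and for Uqcr11 replicates 1 and 3 were below every control and replicate 2 above. Of the 16 complex IV genes 12 were below 0 (median -0.30). Cox4i1, the main form of subunit 4, was at 160, 190 and 180 FPKM in control and 80.4, 250 and 74.3 in Eldr cKI. Cox6b1, which faces the intermembrane space, was at 148, 138 and 146 in control and 72.2, 179 and 131 in Eldr cKI. In both genes the Eldr cKI libraries lie on either side of the controls. Cox6a1, chosen after its values were seen as the gene with an unadjusted p under 0.05, was at 41.3, 100 and 0 FPKM in control and 193, 135 and 220 in Eldr cKI (limma, adjusted p = 0.774). Of the 18 complex V genes 11 were below 0 (median -0.28). Usmg5, a small accessory subunit, was at 553, 752 and 457 FPKM in control and 222, 385 and 846 in Eldr cKI. Atp5a1, the alpha subunit of the catalytic part, was at 153, 145 and 132 in control and 112, 344 and 216 in Eldr cKI.

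Genes that build the complexes or handle mitochondrial RNA were sparse at this depth. Of 23 assembly factors of complexes III, IV and V in the fit, 0 passed and 1 had an unadjusted p under 0.05 (limma), with a median log2 fold change of -0.13. That gene was Coa3, an assembly factor of complex IV, at 27.4, 123 and 0 FPKM in control and listed at 0 in all 3 Eldr cKI libraries. Cox14, which acts in early assembly of the same complex, was at 45.3, 21.4 and 16.3 FPKM in control and 19.8, 69.6 and 34.6 in Eldr cKI. Of 22 genes of mitochondrial transcription and RNA handling in the fit, 0 passed and 0 had an unadjusted p under 0.05. Of these 17 of 22 were above 0, with a median of 0.68, where 5264 of 10772 genes were. Their summed FPKM was highest in the library of greatest estimated depth (Eldr cKI replicate 3, 194) and lowest in that of least (control replicate 2, 23.8). No gene of that list was above 0 in every library. Hsd17b10, a subunit of mitochondrial RNase P, was at 13.7, 0 and 26.8 FPKM in control and 0, 11.1 and 4.59 in Eldr cKI. Gabpa, a nuclear transcription factor of respiratory genes, was at 7.08, 0 and 8.08 in control and 0, 6.24 and 27.0 in Eldr cKI.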

How the data were processed

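The submitters' processing notes list HISAT2 2.0.5, StringTie and cutadapt. Those notes name the human build hg19, but the deposited loci of the 6 genes equal their GENCODE M21 spans on mouse GRCm38, which is used here. Per the labels' protocols, libraries came from poly(A) selection or ribosomal RNA removal with a stranded kit. Which enrichment each library had, the counting and its use of strand are not given in the sources used here, so reads of a gene and of its antisense strand cannot be told apart.

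The authors deposited, per the file headers, FPKM for each library. Their table also holds, as deposited per row, the log2 fold change, the fold as a linear ratio, and the p-value with its q-value. The FPKM were fitted as log2(FPKM + 1) in limma 3.58.1 (R 4.3.3) with group as the only term and a mean-variance trend. The 10772 rows with a mean of at least 0.5 FPKM entered, and genes passed at a Benjamini-Hochberg adjusted p under 0.05. The fit was also run on simulated data whose libraries all shared the same make-up, unlike these libraries, so its outcome is not used as support here. Fold changes of low genes are understated by the pseudocount. Values per library were compared by exact two-sided permutation tests, and neighbouring levels by exact sign flips. Counts could not be recovered: only 25.1% to 39.7% of low values came within 0.05 of whole fragments, and the depths are rough. Copies were found with blastn against GENCODE M21 transcripts, with at least 99% identity over at least 100 bases called near-identical. Other steps used Python 3.11.15 with scipy 1.17.1, numpy 2.4.6, matplotlib 3.10.9 and pandas 2.3.3.

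The members and gene lists were chosen with earlier results of these data known. All 6 members were named whatever their result, with the 3 genes closest in pattern to each and, of each nuclear list, the genes past the threshold or otherwise the 2 with the highest mean FPKM. The alternatives were other pseudocounts, filters, scalings and moderation, library weights, a replicate block and leaving out each library.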

Additional observations from a re-analysis of the deposited data

How the results depend on the processing

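The members past the threshold numbered 0 in the fit reported. They numbered 2 with a pseudocount of 0.1 FPKM (mt-Atp6 and mt-Cytb), 1 after rescaling libraries to a common total (mt-Atp6), 1 with the 4 predicted genes left out (mt-Atp6), and 0 to 1 when each library was left out in turn (mt-Atp6 without control replicate 1, mt-Cytb without Eldr cKI replicate 2). The mt-Atp6 calls were higher in Eldr cKI with all 6 libraries and lower without control replicate 1. Over all genes the count was 3 in the fit reported and 0 to 17 otherwise. By limma it was 0 without the mean trend (356 genes at an unadjusted p under 0.05), 0 when control replicate 3 was dropped (341) and 0 when Eldr cKI replicate 1 was (371), 8 with a pseudocount of 0.1, and 12 without control replicate 1. The replicate block gave 1 member, mt-Cytb (adjusted p = 0.0166). The correlations of same-numbered libraries' deviations were -0.17, 0.03 and -0.15, and those of differently numbered ones -0.07 to 0.24. With so few libraries these values cannot decide whether same-numbered samples are paired. Control replicate 1 correlated best with Eldr cKI replicate 3, not with its own number.

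Over 17 alternatives mt-Cytb and mt-Atp8 stayed below 0 in all 17, mt-Co2 and mt-Co3 in 15, and mt-Co1 in 14. mt-Co1 was at 0.33 with quantile normalization and 0.0912 with predicted genes left out, and ran from -1.35 to 0.36 over the left-out libraries. mt-Co2 was at 0.12 with predicted genes left out and ran from -1.20 to 0.21. mt-Co3 was at 0.0188 with quantile normalization and 0.0893 with predicted genes left out. mt-Atp6 ran from -2.47 to 4.40 over the left-out libraries, mt-Cytb from -1.93 to -0.03, and the log2 ratio of mt-Atp6 to mt-Atp8 from -1.28 to 5.22. The members' share of all FPKM ran from -4.42 to 3.17 percentage points, and was 0.686 without the replicates numbered 1 of both groups, a version chosen after seeing the data. The difference in their share of mitochondrial FPKM ran from 5.44 to 16.9 over the left-out libraries, was 6.04 without mt-Nd6 and 5.16 without mt-Atp6, mt-Nd4 and mt-Nd6, and stayed above 0 in these and with the replicate block. Why the values moved was not tested. The nuclear subunit genes past the threshold numbered 0 in all 17 alternatives. Adding Gm10925 to mt-Atp6 was not run, since only protein-coding rows were used.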

Other observations

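A gene at a small part of its overlapping upstream neighbour was seen in the pairs of mitochondrially encoded genes mt-Atp8 with mt-Atp6 and, in complex I, mt-Nd4l with mt-Nd4, which share 7 bases. The second pair was looked at after the mt-Atp6 values had been seen. mt-Nd4 was at 2636, 40.2 and 13775 FPKM in control and at 16.7, 25.6 and 4169 in Eldr cKI. As a percent of mt-Nd4l that is 80.0%, 0.820% and 163% in control and 3.66%, 0.428% and 98.7% in Eldr cKI. The low libraries of the pairs differ: mt-Atp6 was low in control replicate 1 and Eldr cKI replicate 1, and mt-Nd4 in control replicate 2 and Eldr cKI replicates 1 and 2. In each pair it was the downstream gene that was low, while the upstream gene was at 456 to 5973 FPKM in the same libraries. What sets these values was not tested.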
